A study of Mus musculus with 21 samples.

Results

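Glutathione transferases of the alpha, mu, pi and theta classes were followed in mouse liver after partial hepatectomy. The members were the genes whose array annotation gives Gsta2, Gsta3, Gsta4, Gstm1, Gstm2, Gstm3, Gstm4, Gstp1, Gstt1 or Gstt2 as its gene symbol. These were 10 of the 12393 genes that a probe set with 1 symbol represented, and 15 of the 22690 probe sets on the array. All 10 passed the filter on low values (log2 above 4 in at least 3 arrays), and each lay above log2 4 on every one of the 21 arrays.

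Liver RNA came from 9-month-old male mice that had 30% of the liver removed. KO mice were Mdr2-/- animals of the strain FVB129P2, and control mice were given as FVB129P2/FVBNJ, so genotype and strain background cannot be told apart. Mdr2, encoded by Abcb4, carries phospholipid into bile, and its loss is known for chronic bile duct inflammation, fibrosis and late liver tumours. Day 0 samples were the removed lobe and hold 6 KO and 3 control livers. Day 2 and day 6 samples were taken at sacrifice, with 3 livers per genotype and day, so a day 0 sample and a later one also differ in lobe. Samples carry the number of their mouse: the later KO samples and control 263, 265 and 303 came from mice that also gave a day 0 sample, while control 264, 392 and 393 gave a later sample only. Every group was resected, and no group had sham surgery. In whole liver, fewer cells of a type and less RNA per cell cannot be told apart.

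Glutathione transferases join glutathione to electrophiles, which makes drugs, carcinogens and products of lipid oxidation soluble for export. Alpha, mu and pi enzymes are abundant in hepatocytes, and many of their genes are switched on by the stress sensor Nrf2 (gene Nfe2l2) through antioxidant response elements, and by the drug receptor CAR (gene Nr1i3). Theta enzymes are older relatives that act on small halogenated compounds and sulphate esters. By the RefSeq gene table of assembly GRCm38.p6, the mu genes Gstm5, Gstm7, Gstm6, Gstm3, Gstm2, Gstm1 and Gstm4 lie in this order on chromosome 3 with 0 other protein-coding genes between them. On chromosome 10 the order Gstt3, Gstt1, Gstt4 and Gstt2 is likewise unbroken. Gstp1 lies beside Gstp2 and Gstp3 on chromosome 19, and Gsta3 stands alone on chromosome 1. Gsta4, Gsta1 and Gsta2 share a stretch of chromosome 9 with 4 protein-coding genes of other names, Gm3776, Gm10639, Omt2a and Omt2b. Transferases were counted here by gene symbol only.

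Promoter windows from RefSeq (GRCm38.p6, 250 bases before to 50 after a gene's start) were found for 8 of the 10 members, 10 windows in all. The stretches before the annotated gene are shown for the 3 members that passed between KO and control on day 2 (Gsta2, Gstm1, Gstm3), for Gsta3 as the holder of an antioxidant element core, and for Gstp1 as the pi member. Each reads 5′ to 3′ on the strand of its gene, and capitals mark a match to 1 of the motifs named after them.
Gsta2, chr9:78347193-78347395, minus strand: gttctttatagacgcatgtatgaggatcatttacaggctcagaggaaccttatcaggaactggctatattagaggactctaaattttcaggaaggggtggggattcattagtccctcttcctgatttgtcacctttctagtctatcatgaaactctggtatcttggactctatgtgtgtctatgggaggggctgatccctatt
Gsta3, chr1:21240335-21240564, plus strand: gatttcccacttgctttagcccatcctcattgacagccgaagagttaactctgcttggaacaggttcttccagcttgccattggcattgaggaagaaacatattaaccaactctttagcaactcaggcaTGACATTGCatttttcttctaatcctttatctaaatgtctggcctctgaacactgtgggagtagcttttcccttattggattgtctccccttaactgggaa
Gstm1, chr3:108017974-108018223, minus strand: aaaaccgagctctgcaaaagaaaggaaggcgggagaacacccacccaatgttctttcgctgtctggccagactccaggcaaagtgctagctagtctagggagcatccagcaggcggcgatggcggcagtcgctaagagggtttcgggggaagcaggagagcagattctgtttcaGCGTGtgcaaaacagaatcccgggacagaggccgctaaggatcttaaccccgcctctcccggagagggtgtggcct
Gstm3, chr3:107969175-107969424, minus strand: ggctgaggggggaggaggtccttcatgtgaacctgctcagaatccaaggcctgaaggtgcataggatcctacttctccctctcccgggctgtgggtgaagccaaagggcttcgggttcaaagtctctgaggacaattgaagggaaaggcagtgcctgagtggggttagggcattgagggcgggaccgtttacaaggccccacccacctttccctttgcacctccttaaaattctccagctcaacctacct
Gstp1, chr19:4037913-4038162, minus strand: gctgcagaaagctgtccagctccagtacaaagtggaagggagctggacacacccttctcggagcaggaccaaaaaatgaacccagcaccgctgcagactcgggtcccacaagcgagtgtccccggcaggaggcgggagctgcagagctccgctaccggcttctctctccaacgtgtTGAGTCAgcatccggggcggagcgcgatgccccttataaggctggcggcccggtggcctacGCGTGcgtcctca

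The antioxidant response element core (TGACNNNGC, where N is any base, searched on both strands) was found in 1 member with a window, Gsta3, at 121 to 113 bases before the start. It occurs in 12.4% of all 32851 windows of this length. The xenobiotic response element core (GCGTG, both strands), which the dioxin receptor binds, lay 76 to 72 bases before a start of Gstm1 and 13 to 9 bases before that of Gstp1, and it occurs in 32.4% of all windows. It also lay 7 to 3 bases before the start that defines the Gsta2 window, inside the annotated gene and outside the stretch shown. An AP-1 site (TGANTCA, both strands), a motif added after the sequences had been read, lay 74 to 68 bases before the start of Gstp1 and occurs in 7.81% of all windows. None of these motifs lay in the stretches shown for Gsta2 and Gstm3. These are matches of letters in a short window and say nothing about binding.

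The signals are the deposited log2 values, on which a difference of 1 is a doubling, and levels are set side by side only within a gene. Every member had its lowest group mean on day 2. The lowest group mean was that of control day 2 for Gsta2, Gsta3, Gsta4, Gstm1, Gstm2, Gstm3, Gstp1 and Gstt1, and that of KO day 2 for Gstm4 and Gstt2. The highest group mean was in KO on day 0 for Gsta2 and Gsta4 and in KO on day 6 for Gstm1 and Gstm3. It was in control on day 0 for Gsta3, Gstm4, Gstt1 and Gstt2, and in control on day 6 for Gstm2 and Gstp1. Neighbours in the order of group means mostly overlapped. For Gsta2 the order ran from KO day 0 (12.71) through KO day 6 (12.43), control day 0 (12.10), KO day 2 (10.68) and control day 6 (10.29) to control day 2 (7.20). In that order the values overlapped between neighbours except below control day 0 and below control day 6. For Gstm3 it ran from KO day 6 (13.01) through KO day 0 (12.90), control day 6 (12.18), KO day 2 (10.83) and control day 0 (10.58) to control day 2 (7.37), with gaps below control day 6 and below control day 0. For Gstm2, Gstm4 and the theta genes Gstt1 and Gstt2 every pair of neighbours overlapped.

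**Figure D1:**
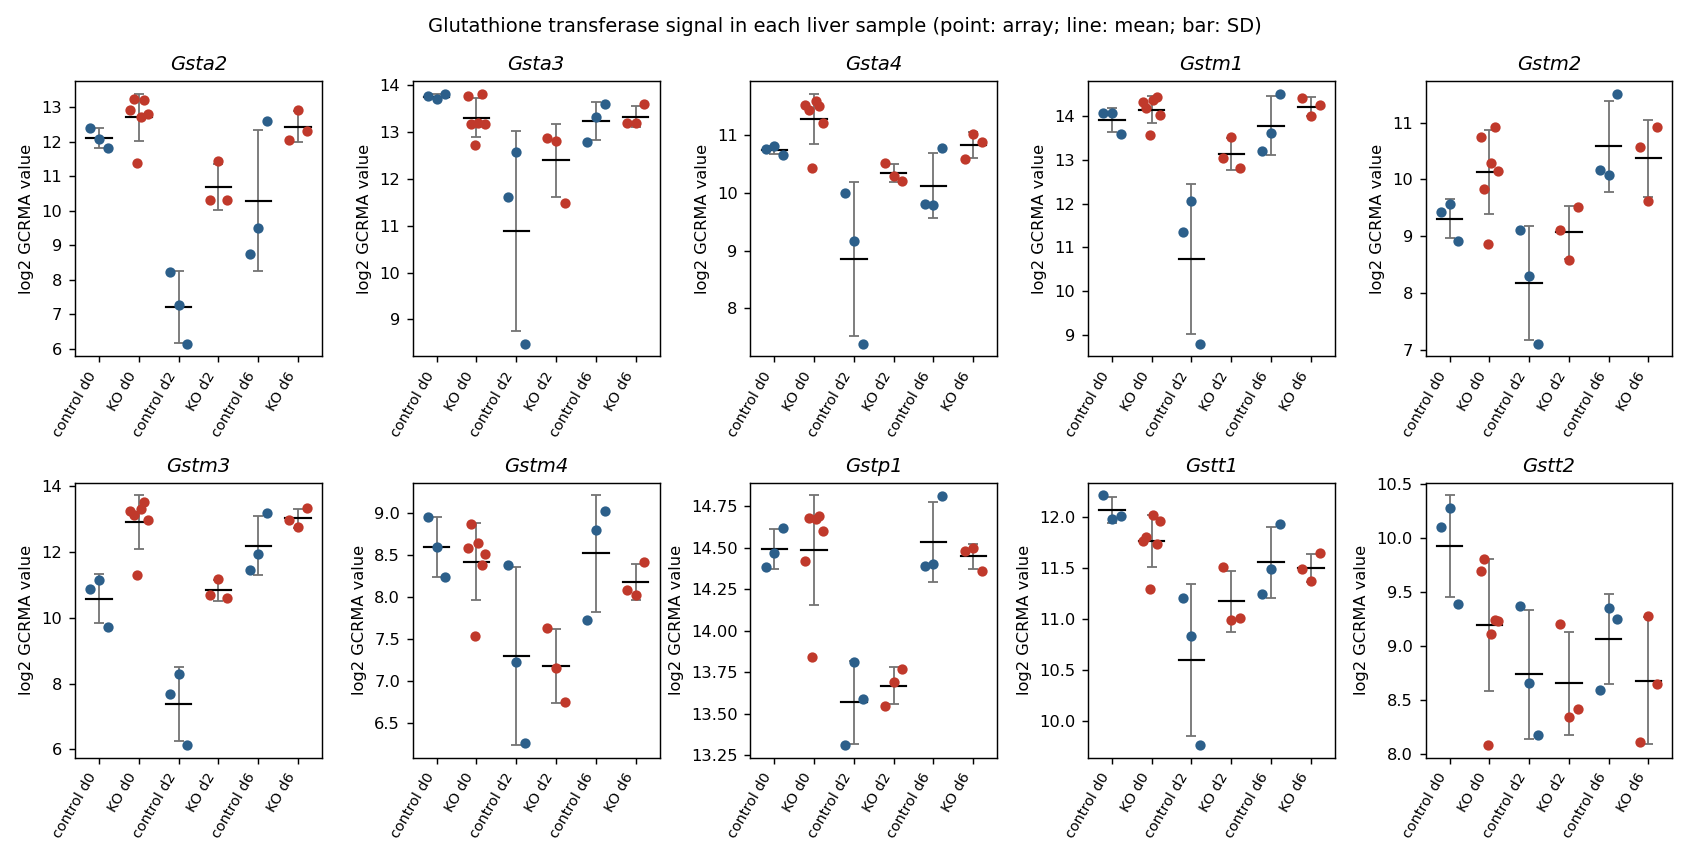
Deposited log2 GCRMA value of each of the 10 transferases (vertical axis, own scale per gene) in every liver sample of the 6 groups; points are arrays, lines are group means and bars are ± 1 SD (n = 6 in KO day 0 and n = 3 in each other group). The day 2 samples sit low, and Gsta2 runs from 6.14 to 8.21 in control day 2 against 11.82 to 12.40 in control day 0.

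KO and control livers were first compared in the lobes removed on day 0. The mu enzyme Gstm3, an Nrf2 target in mouse liver, was higher in KO, and the other 9 members did not pass the test. In control day 0 the log2 values of Gstm3 were 9.73, 10.86 and 11.15, and in KO day 0 they ran from 11.29 through a median of 13.18 to 13.52. Every KO liver was above every control liver. The difference was 2.32 ± 0.50 (SE, adjusted p = 0.00557, limma with Benjamini-Hochberg adjustment over 7320 genes). Of all genes tested, 9.66% passed in this comparison and 6.79% passed as higher in KO, so a count of 1 in 10 members is near the background. Among all genes, 497 passed as higher and 210 as lower with the values as deposited, and 381 and 337 with each array centred on its median. Leaving out the day 0 sample of control mouse 263, 265 or 303 changed the total of 707 to 471, 357 and 417. With mouse 303, the lowest control value, left out, the Gstm3 difference was 1.90 and no longer passed (adjusted p = 0.0576 by limma).

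No other alpha, mu, pi or theta member passed on day 0. Gstm1, an abundant mu enzyme, lay at 13.59 to 14.08 in controls and 13.57 to 14.43 in KO. Gstp1, the pi enzyme known for its high level in male mouse liver, lay at 14.38 to 14.62 in controls and 13.84 to 14.69 in KO. Gsta3, which in mice clears the epoxide of aflatoxin, lay at 13.71 to 13.80 in controls and 12.73 to 13.82 in KO. The genotypes overlapped in each of these genes by the probe set that stands for it. A second Gsta3 set did not overlap and was lower in KO, at 9.88 to 10.62 against 11.09 to 11.47. Over the members the median difference was 0.12, against 0.02 over all genes tested. Markers of other cells moved with genotype here: the mean of 12 of 14 stellate and matrix genes, centred per gene, was 0.06 to 1.72 in KO day 0 and −1.68 to −1.56 in control day 0, with Des and Lrat at or under log2 4 on every array. For 9 of 15 bile duct and progenitor genes it was 0.01 to 0.96 in KO and −1.26 to −0.72 in control, with Cftr and Muc1 at or under log2 4 throughout. Their part in the Gstm3 difference was not tested. The hepatocyte markers tested (16 of 20) had means of −0.04 to 0.10 in KO day 0 and −0.12 to 0.03 in control day 0. Of these markers Hp and Hpx were called higher in KO and Hpd lower.

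In control livers most transferases fell by day 2 after the resection. Of the 10 members, 7 were lower than at day 0 and none was higher, against 4.28% lower and 5.23% higher among all genes tested (9.51% in all). All members had a difference below 0, as did 44.2% of all genes, and the median difference was −1.68 against 0.08 over all genes. Groups did not overlap for 8 members, all of them lower, against 25.7% of all genes (10.5% lower). The alpha gene Gsta2 had the widest difference of the 10. This inducible enzyme had log2 values of 12.40, 12.09 and 11.82 in controls 263, 265 and 303 at day 0, and of 8.21, 7.26 and 6.14 in controls 263, 264 and 265 at day 2. The groups stood far apart. This difference of −4.90 ± 0.73 (SE) is a 29.9-fold lower signal (adjusted p = 0.00184, limma). Gsta3 went from 13.71 to 13.80 at day 0 to 11.61, 12.57 and 8.48 in mice 263, 264 and 265, a difference of −2.87 ± 0.66 (adjusted p = 0.0149 by limma). Gsta4, which clears the lipid peroxidation product hydroxynonenal, went from 10.66 to 10.81 at day 0 to 9.99, 9.17 and 7.39, a difference of −1.89 ± 0.45 (adjusted p = 0.0181 by limma). In each of these alpha genes mouse 265 was the lowest liver on day 2.

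Of the 4 mu members, 2 passed. Gstm1 had log2 values of 14.08, 14.07 and 13.59 at day 0 and of 11.35, 12.05 and 8.79 in mice 263, 264 and 265 at day 2, a difference of −3.18 ± 0.55 (SE, adjusted p = 0.00364, limma). Gstm3 had 10.86, 11.15 and 9.73 at day 0 and 7.68, 8.30 and 6.12 at day 2, a difference of −3.21 ± 0.58 (adjusted p = 0.00503 by limma). All day 2 livers lay below all day 0 livers in both genes. Gstm2 and Gstm4 did not pass: Gstm2 had 8.92 to 9.57 at day 0 and 7.11 to 9.11 at day 2, and Gstm4 had 8.24 to 8.95 and 6.27 to 8.38. The pi enzyme Gstp1 passed with a small difference of −0.92 ± 0.21 (adjusted p = 0.0138, limma), from 14.38, 14.47 and 14.62 at day 0 to 13.31, 13.81 and 13.59 at day 2. Of the theta genes, Gstt1, which acts on dihalomethanes, passed at −1.47 ± 0.29 (adjusted p = 0.0062 by limma), from 12.21, 11.98 and 12.01 at day 0 to 11.20, 10.83 and 9.76 in mice 263, 264 and 265. Every day 2 liver was below every day 0 liver for Gstp1 and Gstt1. Gstt2, which acts on sulphate esters, had −1.19 ± 0.42 (adjusted p = 0.0796 by limma).

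**Figure D2:**
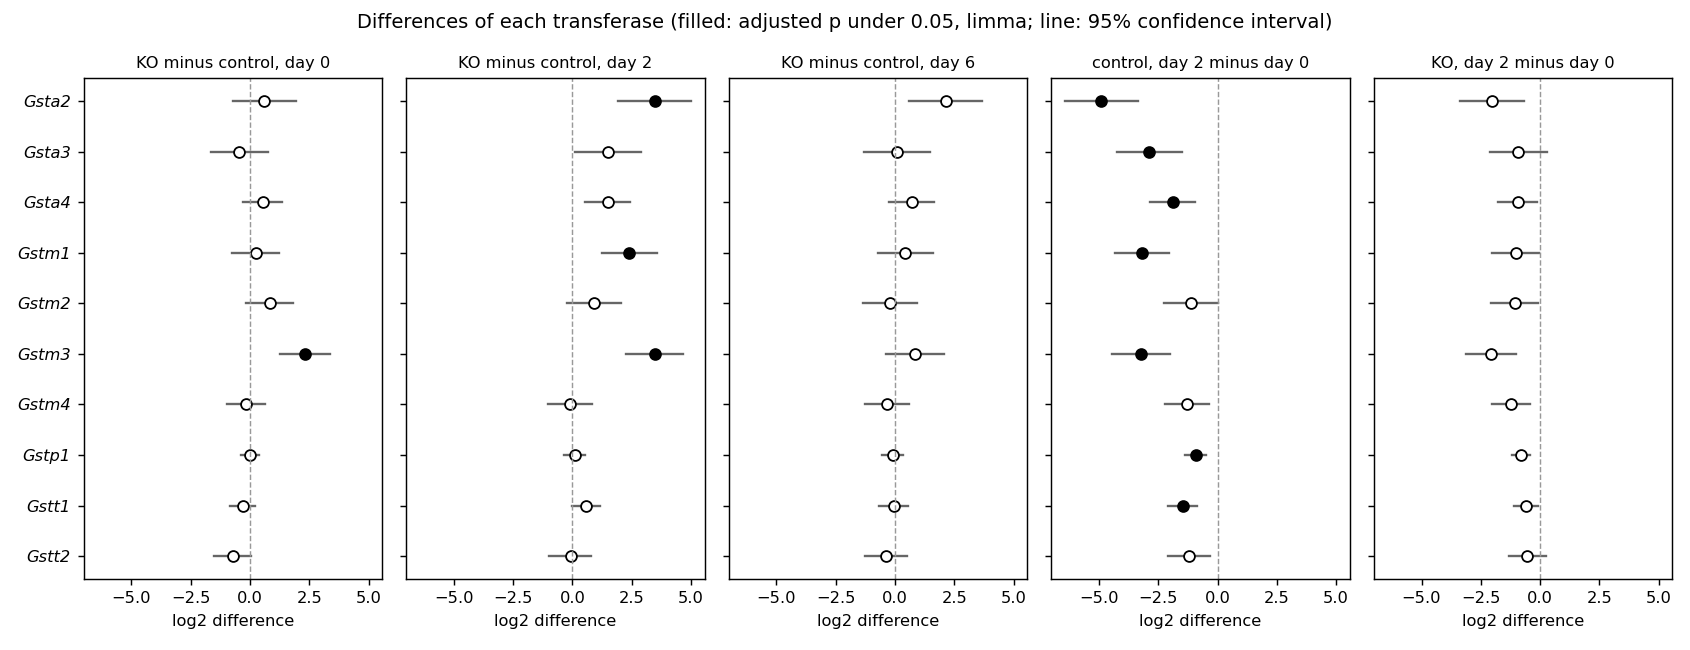
Log2 differences of the 10 transferases in 5 comparisons (horizontal axis, log2 units), each point an estimate from 1 limma model of all 21 arrays and each line its 95% confidence interval; filled points passed at an adjusted p under 0.05. Filled points number 1 for KO against control on day 0, 3 on day 2 and 0 on day 6, 7 for day 2 against day 0 in control, and 0 in KO, where all 10 estimates lie below 0.

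The condition of the RNA differed between these arrays. The chip has probe sets near the 3′ and the 5′ end of Gapdh and beta-actin, and their log2 difference grows as RNA shortens. For Gapdh the difference reached 9.50 in mouse 265 and 1.58 in mouse 263 among the day 2 controls, where mouse 264 had 0.07. The KO liver 337 had 2.03 at day 0, and the other 18 arrays had at most 0.94. The beta-actin difference of the day 2 controls was 5.92, 3.91 and 1.81 in mice 265, 263 and 264. Mouse 264, whose end differences lay within those of the control day 0 livers, was below the control day 0 mean in 10 of 10 members, with a median of −1.31 and Gsta2 at −4.84. Mice 263 and 265 were also below it in 10 of 10, with medians of −1.02 and −2.84. Leaving out the 3 arrays with a Gapdh difference above 1, which leaves control day 2 with mouse 264, assumed to vary like the other groups, 1 member passed, Gsta2 at −4.84 (adjusted p = 0.0434, limma). The values without them were −1.86 for Gstm1, −2.28 for Gstm3 and −1.19 for Gsta3. With the beta-actin difference as a covariate Gsta2 alone passed again, at −4.19 (adjusted p = 0.0353, limma), and in a fit of the control day 0 and day 2 arrays alone it was also the 1 member that passed (adjusted p = 0.029). With the mouse as a fixed block, a replicate block that rests on mice 263 and 265, 0 members passed and Gsta2 had −5.07 (adjusted p = 0.0552, limma). All 10 members stayed below 0 in each of these fits.

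**Figure D3:**
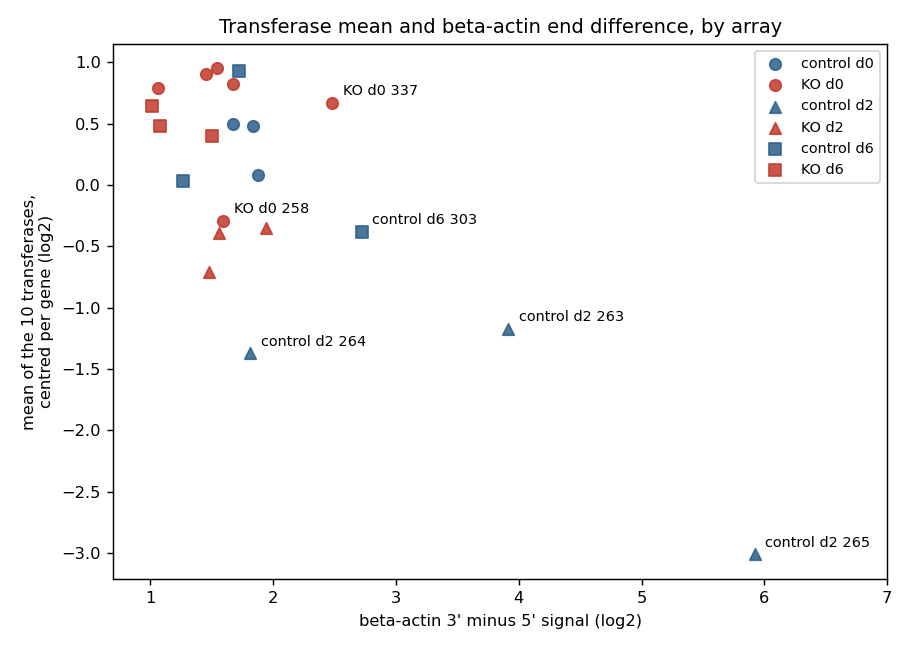
Mean of the 10 transferases, each centred on its own mean over 21 arrays (vertical axis, log2), against the beta-actin 3′ minus 5′ difference (horizontal axis, log2), 1 point per array, with colour for genotype and shape for day. Control day 2 265 lies alone at 5.92 and −3.01, while control day 2 264 lies at 1.81 and −1.37, below the day 0 controls of like end difference (0.08 to 0.50).

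Single livers also carried weight in this comparison. Without control day 2 265 the difference of Gsta3 was −1.67 and that of Gsta4 was −1.16, and Gsta4 no longer passed (adjusted p = 0.0663, limma). Without control day 0 265 the count of members fell to 4, as Gsta3, Gsta4 and Gstp1 did not pass (adjusted p = 0.0538, 0.0663 and 0.0504 by limma). Gsta4 and Gstp1 also failed without control day 0 303 (adjusted p = 0.0514 and 0.058 by limma), leaving 5. Gsta2, Gstm1, Gstm3 and Gstt1 passed with any 1 array left out. Neutrophil genes were among the markers that differed between these groups: S100a8 and S100a9 were higher on day 2, and the mean of the 3 tested of 10 listed was 0.21 to 2.44 in control day 2 and −2.11 to −0.83 in control day 0, while Camp, Ltf, Elane and Mpo were at or under log2 4 on every array. The stellate and matrix mean was −1.08 to −0.22 in control day 2 and −1.68 to −1.56 in control day 0, with Col3a1 and Pdgfrb higher on day 2. The bile duct mean was −0.59 to 0.17 and −1.26 to −0.72, with 0 of 9 genes called. The part of these markers in the transferase differences was not tested. Hepatocyte markers had means of −0.29 to −0.14 in control day 2, below the −0.12 to 0.03 of control day 0. Their calls were split: of 16 tested, Hp, Fga and Hpx were higher on day 2, Hpd was lower, and 12 were not called.

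In KO livers the day 2 estimate was below day 0 for all 10 transferases, as for 52.7% of all genes, but 0 members and 0 of 7320 genes passed by limma. At an unadjusted p under 0.05, 8 members were lower and none higher, against 6.00% of all genes (3.66% lower). The median difference over the members was −0.98, and −0.02 over all genes. The groups did not overlap for Gstm1, Gstm3 and Gstp1, all lower on day 2, against 2.57% of all genes (1.60% lower). Gstm3 had log2 values of 10.69, 11.18 and 10.61 in KO 250, 254 and 258 at day 2, a difference from day 0 of −2.08 ± 0.50 (SE, adjusted p = 0.449 by limma). Gsta2 had 10.30, 11.44 and 10.30 at day 2 and 11.37 to 13.24, with a median of 12.86, at day 0, a difference of −2.03 ± 0.63 (adjusted p = 0.605 by limma). Gstp1 had 13.55, 13.69 and 13.77 at day 2 and 13.84 to 14.69 at day 0, a difference of −0.81 ± 0.18 (adjusted p = 0.353 by limma). In KO, too, the pi enzyme had all its day 2 livers below all its day 0 livers.

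KO 258 at day 0 was the lowest of the 6 KO day 0 livers in all 10 members, and it had the highest stellate and matrix mean (1.72) and bile duct mean (0.96) among them. Its Gapdh difference was 0.12. Without this array 2 members passed in KO day 2 against day 0, Gstm3 at −2.40 (adjusted p = 0.0146, limma) and Gstp1 at −0.94 (adjusted p = 0.00597, limma), of 32 genes in all. With any other single array left out the count of members was 0 (limma; 8 members had an unadjusted p under 0.05 with all arrays).

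Samples of the same mouse gave the within-animal view. In the 2 control mice with a day 0 and a day 2 sample all 10 members were lower at day 2, with a median difference of −1.04 in mouse 263 and −2.94 in mouse 265. In KO mice 250, 254 and 258 the members lower at day 2 were 10, 10 and 8, with medians of −0.98, −1.20 and −0.48. Gsta2 differed by −4.19 and −5.95 in control 263 and 265 and by −2.63, −1.80 and −1.07 in KO 250, 254 and 258. Gstm1 differed by −2.73 and −5.28 in the control mice and by −1.27, −0.67 and −0.76 in the KO mice. Gstp1 differed by −1.07 and −0.88 in the control mice and by −0.87, −0.99 and −0.07 in the KO mice. For Gsta2 and Gstm1 both control mice had more negative differences than the 3 KO mice, and for Gstp1 the genotypes overlapped. Both control mice are those with a high Gapdh end difference at day 2 (1.58 and 9.50), while the KO mice had −0.08 to 0.23, so genotype and RNA condition cannot be told apart in these pairs. At day 6 the members below day 0 were 8 in control 303 and 7, 9 and 6 in KO 312, 332 and 337.

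**Figure D4:**
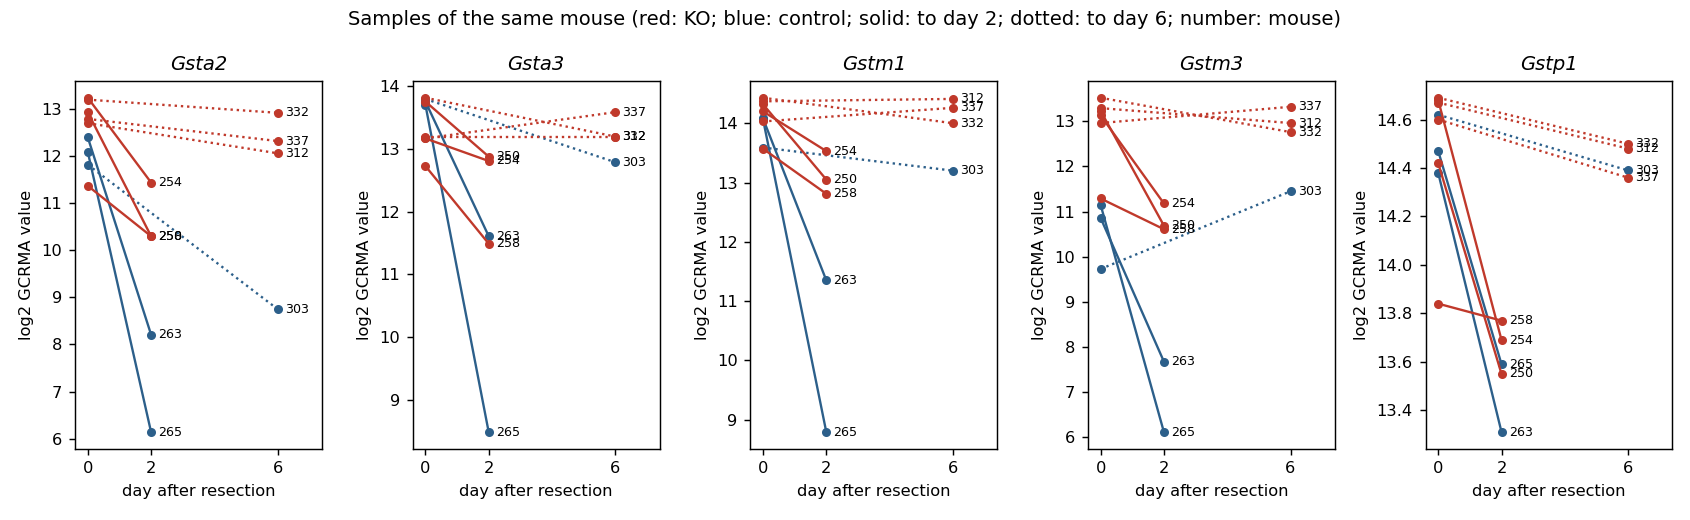
Log2 GCRMA value of 5 transferases (vertical axis, own scale per gene) against the day after resection (horizontal axis, days), with a line joining the samples of 1 mouse; red is KO, blue is control, solid lines end at day 2 and dotted lines at day 6. Gsta2 changes by −4.19 and −5.95 in the control mice at day 2 and by −2.63 to −1.07 in the KO mice; the day 2 arrays of these control mice have Gapdh end differences of 1.58 and 9.50, against −0.08 to 0.23 in KO.

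Whether KO and control differed in the day 2 response was tested as an interaction. The estimate was less negative in KO for all 10 members, while 57.5% of all genes lay on the other side of 0, but 0 members and 0 of 7320 genes passed by limma. At an unadjusted p under 0.05 the count was 4 members, all with a less negative response in KO, against 14.6% of all genes (5.79% in that direction). They were Gsta2 (2.88 ± 0.97, SE), Gstm1 (2.16 ± 0.72), Gsta3 (1.96 ± 0.88) and Gstt1 (0.88 ± 0.38), with adjusted p between 0.207 and 0.313 by limma. The median over the members was 0.91, and −0.10 over all genes. With the 3 high-Gapdh arrays left out 8 of 10 were above 0, Gstm2 and Gstp1 being the exceptions, and the median was 0.43. With the beta-actin covariate 8 were above 0, without Gstm2 and Gstm4, and with quantile normalization 9, without Gstm4. Without control day 2 264 Gstm1 passed at 2.82 (adjusted p = 0.034, limma), among 228 genes in all. That fit leaves control day 2 with mice 263 and 265, whose Gapdh end differences were 1.58 and 9.50.

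On day 2 the KO livers held more transferase signal than the controls in 3 members. Gsta2, Gstm1 and Gstm3 were higher in KO and none was lower, against 5.71% of all genes tested, 2.75% higher. Among all genes 201 were higher and 217 lower, or 162 and 355 with each array centred on its median. This comparison shares the control day 2 arrays with that of control day 2 against day 0. Gsta2 lay at 10.30, 11.44 and 10.30 in KO and 8.21, 7.26 and 6.14 in control, a difference of 3.48 ± 0.73 (SE), 11.1-fold (adjusted p = 0.0131, limma). Gstm3 lay at 10.69, 11.18 and 10.61 in KO and 7.68, 8.30 and 6.12 in control, a difference of 3.46 ± 0.58, 11.0-fold (adjusted p = 0.00289, limma). Gstm1 lay at 13.05, 13.53 and 12.81 in KO and 11.35, 12.05 and 8.79 in control, a difference of 2.40 ± 0.55, 5.28-fold (adjusted p = 0.0189, limma). In all 3 genes every KO liver was above every control liver. The same held for Gsta4, at 10.21 to 10.51 against 7.39 to 9.99, which did not pass (1.49 ± 0.45, adjusted p = 0.0589 by limma). That makes 4 members with groups that do not overlap, all higher in KO, against 20.1% of all genes (8.28% higher). The other 6 members overlapped, among them Gstp1 at 13.55 to 13.77 in KO and 13.31 to 13.81 in control, and Gstm4 at 6.75 to 7.63 and 6.27 to 8.38. In all, 8 members had an estimate above 0, and 6 to 8 did under the alternatives other than single arrays left out. With each array centred on its median the count was 7, where Gstp1 was below 0. The median over the members was 1.19, or 0.21 to 1.22 under those alternatives, against −0.03 over all genes. Hepatocyte markers had means of 0.07 to 0.16 in KO day 2 and −0.29 to −0.14 in control day 2, and the stellate and matrix markers −0.08 to 1.68 and −1.08 to −0.22. Of the hepatocyte markers Tat and Hpd were called higher in KO and none lower. The bile duct and progenitor mean was 0.24 to 0.53 in KO and −0.59 to 0.17 in control, with Prom1, Cdh1 and Tspan8 higher in KO. Their part in these differences was not tested.

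The control day 2 arrays with a high end difference enter this comparison. With the 3 high-Gapdh arrays left out 0 members passed, with values of 3.42 for Gsta2 (adjusted p = 0.189), 2.53 for Gstm3 (adjusted p = 0.181) and 1.08 for Gstm1 (adjusted p = 0.361, all by limma). With the beta-actin covariate 0 members passed, at 2.72, 2.35 and 0.89. With only the day 2 groups in the fit 0 members passed (adjusted p = 0.0967 for Gsta2, 0.0863 for Gstm3 and 0.335 for Gstm1, by limma). Gsta3, at 1.51 ± 0.66 in the fit of all arrays (adjusted p = 0.171, limma), was at −0.18 without the 3 arrays and −0.29 with the covariate. Without KO day 2 254 Gstm3 alone passed, as Gsta2 (3.10) and Gstm1 (2.20) had an adjusted p of 0.0779 and 0.0909 by limma. Without control day 2 264 the count was 5, with Gsta3 and Gsta4 added, while 1161 of all 7320 genes passed, against 418 with all arrays. That fit leaves control day 2 with mice 263 and 265, which have a high Gapdh end difference. Without control day 2 265 Gstm1 was at 1.43 and Gsta3 at 0.30.

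On day 6 no member passed in any comparison. KO against control had 0 of 10 (1.73% of all genes, 91 higher and 36 lower, or 79 and 88 with arrays centred), control day 6 against day 0 had 0 (2.86%), KO day 6 against day 0 had 0 (0.137%), and the day 6 interaction had 0 (0.164%), all by limma. At an unadjusted p under 0.05 the counts were 1, 3, 0 and 0, against 12.9%, 16.3%, 5.44% and 5.36% of all genes. In control livers Gsta2 ranged widely, with 8.75 in mouse 303, 9.51 in 392 and 12.61 in 393, against 12.06 to 12.92 in KO. Mouse 393 was the highest of the control day 6 livers in 9 of 10 members. For Gsta2 the difference of KO from control was 2.14 ± 0.73 (adjusted p = 0.177, limma), and that of control day 6 from day 0 was −1.81 ± 0.73 (adjusted p = 0.212). Without control day 6 393 it passed in both, at 3.30 (adjusted p = 0.00538, limma) and −2.97 (adjusted p = 0.00624). Gstm3 in control was above its day 0 values, at 11.45, 11.92 and 13.18, a difference of 1.60 ± 0.58 (adjusted p = 0.164, limma). Gstm2, at 10.07 to 11.51 in control day 6 and 8.92 to 9.57 in control day 0, differed by 1.27 ± 0.54 (adjusted p = 0.235, limma). In the other direction, Gsta3, Gstt1 and Gstt2 had differences of −0.53, −0.51 and −0.86 (adjusted p = 0.778, 0.404 and 0.319 by limma). Over the members 7 estimates were below 0 and 3 above, with a median of −0.32. Control day 6 303 had end differences of 0.94 for Gapdh and 2.72 for beta-actin.

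Several members are read by more than 1 probe set. The name endings mark probe sets that match several transcripts (_s_at) or hold probes that can cross-hybridise (_x_at), which matters in a family of near-identical copies. Gstm3 was represented by 1427474_s_at, and its other set 1427473_at gave 2.68 ± 0.76 for KO against control on day 0 (adjusted p = 0.0362, limma over all probe sets) and 4.60 ± 0.88 on day 2 (adjusted p = 0.00777). On day 2 this other set lay at 7.55 to 8.33 in KO and at 2.77, 5.51 and 1.67 in control 263, 264 and 265. Mice 263 and 265, here under log2 4, are those with a high Gapdh end difference. Gstm1 was represented by 1416416_x_at. Its sets 1448330_at, 1425627_x_at and 1425626_at gave 2.62 ± 0.56, 1.50 ± 0.52 and 1.29 ± 0.45 for KO against control on day 2, of which the first passed (adjusted p = 0.015, 0.0857 and 0.0864, limma), and all 3 passed as lower on control day 2 than day 0. The control day 2 values of 1425626_at, 2.36 to 3.25, were all under log2 4. For Gsta3, a further member with 2 sets, 1423436_at was the one that stood for the gene. The second Gsta3 set, 1423437_at, passed as lower in that comparison too (−1.94 ± 0.58, adjusted p = 0.0428, limma), and gave 0.17 ± 0.58 for KO against control on day 2. Unlike the set that stands for Gsta3, it lay lower in KO without overlap on day 0, at 9.88 to 10.62 against 11.09 to 11.47. The same held on day 6, at 9.71 to 10.23 against 10.53 to 11.13. A set annotated to Gm3776, Gsta2 and Gsta1 together was left out of the tests and ran from 10.94 to 11.70 in control day 0 and from 3.99 to 6.84 in control day 2. A member's value is that of its probe set.

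Other transferases outside the 10 members held 9 tested genes of 17 listed. In KO against control on day 0 the theta gene Gstt3 was lower (−3.26 ± 0.53, adjusted p = 0.000439, limma) and the mu gene Gstm5 was higher (1.14 ± 0.19, adjusted p = 0.000643). Gstt3 lay at 6.38 to 7.10 in controls and 2.93 to 3.97 in KO, where every value is under log2 4. On day 2 the mu genes Gstm6 (2.01 ± 0.47, adjusted p = 0.0216, limma) and Gstm7 (1.08 ± 0.29, adjusted p = 0.0372) were higher in KO, but 4 and 5 of the 21 fits without a single array ended these calls, and neither passed with the 3 high-Gapdh arrays left out. Gstm6, which lies between Gstm7 and Gstm3, had 8.82 to 9.51 in control day 0 and 4.69 to 6.39 in control day 2. In control day 2 against day 0, 5 of the 9 fell (Gstm6, Gstt3, Gstm7, Gstz1 and Gstk1), against 4.28% of all genes, with a median of −1.16. In KO 0 of the 9 and 0 of all 7320 genes passed, with a median of 0.01 over the 9.

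Genes that make and recycle glutathione were counted next. Of 17 tested genes of 22 listed, 1 was lower in control day 2 than day 0, Gnmt, which consumes the methyl donor S-adenosylmethionine, and the median was −0.26. Between KO and control on day 0 the calls of this list split into 2 higher and 2 lower, with a median of 0.00. The lower genes were Ahcy, which breaks down S-adenosylhomocysteine (−0.84 ± 0.22, adjusted p = 0.0189 by limma), and the glutaredoxin gene Glrx. The Ahcy call ended without control day 0 265 or 303. The peroxidase genes Gpx3 and Gpx4, which use glutathione to reduce peroxides, were higher in KO on day 0 (2.68 ± 0.74 and 1.17 ± 0.32, adjusted p = 0.0276 and 0.0259 by limma) and on day 2 (3.18 ± 0.86 and 1.49 ± 0.37, adjusted p = 0.0369 and 0.0265), and Gpx3 also on day 6 (3.59 ± 0.86, adjusted p = 0.0358). Between 2 and 4 of the 21 fits without a single array ended each of these calls. The day 2 calls of both genes were also lost with the 3 high-Gapdh arrays left out (2.04 for Gpx3 and 0.59 for Gpx4), with the beta-actin covariate (2.19 and 0.46) and with only the day 2 groups in the fit. The day 6 call of Gpx3 was lost with the covariate and with only the day 6 groups. Without the filter on low values the Gpx3 calls on days 0, 2 and 6 were all lost. In control its values were near that filter, at 2.87 to 4.43, 2.96 to 5.49 and 3.17 to 4.73 on days 0, 2 and 6. Exporters of conjugates, 4 tested of 8, had 1 lower gene in control day 2, Abcg2, and 0 called between KO and control on any day.

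Among 17 tested regulators of 19 listed, Nfe2l2 was higher in KO on day 0 (0.94 ± 0.23, adjusted p = 0.0117, limma) and Nr1i3 was lower (−1.71 ± 0.52, adjusted p = 0.0449). The Nfe2l2 call ended without control day 0 265 or 303, and the Nr1i3 call ended in 13 of 21 fits without a single array. On day 2 Nfe2l2 was 0.84 ± 0.26 above control (adjusted p = 0.0635, limma) and Nr1i3 0.43 ± 0.60. In control day 2 against day 0 none of the 17 passed. Of 24 other drug-metabolising enzymes tested, 9 fell in control day 2 and 0 rose, with a median of −0.58, and Ephx1, an epoxide hydrolase, was among those that fell. Among all genes 4.28% fell and 5.23% rose. In KO day 2 against day 0, 0 of the 24 and 0 of all 7320 genes passed, with a median of −0.49 over the 24. Against control, the sulphotransferase Sult5a1 was lower in KO on day 0 (−4.67 ± 0.44, adjusted p = 1.84e-06, limma) and day 6 (−3.50 ± 0.51, adjusted p = 0.00061), and Sult1a1 was higher on day 2 (1.37 ± 0.22, adjusted p = 0.0025). The monooxygenase Fmo5 was higher in KO on day 0 (1.21 ± 0.29, adjusted p = 0.0114, limma) and on day 2 (1.59 ± 0.33, adjusted p = 0.0131). The day 2 calls of Sult1a1 and Fmo5 were lost with the 3 high-Gapdh arrays left out. The day 0 call of Fmo5 ended without control day 0 263 or 265.

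Zonal and sex-biased liver genes were counted beside the transferases. Of 18 tested pericentral hepatocyte genes, 2 fell and 1 rose in control day 2 against day 0 (median −0.39), and of 14 periportal genes 2 fell and 1 rose (median −0.66). In KO against control on day 0, 3 of the 18 pericentral genes were lower, against 210 of all 7320 genes. They were Cyp2e1 (−0.65 ± 0.14, adjusted p = 0.00673, limma), Nr1i3 and Lect2. Nr1i3 and Lect2 lost their calls in 13 and 14 of the 21 fits without a single array. On day 2 the pericentral gene Tbx3 was lower (−1.72 ± 0.35, adjusted p = 0.0102, limma), a call lost with the beta-actin covariate and without KO day 2 254. Also on day 2, 3 periportal genes were higher, Cdh1, Cyp2f2 and Asl, against 2.75% of all genes. The calls of Cyp2f2 and Asl were lost with the 3 high-Gapdh arrays left out, with the beta-actin covariate, and in 4 and 3 of the 21 fits without a single array. Cdh1, which is also on the bile duct list, was higher in KO on day 0 (2.62 ± 0.31, adjusted p = 2.24e-05, limma) and day 6 (2.00 ± 0.36, adjusted p = 0.00443) as well. Of 15 male-biased genes, 3 were lower in KO on day 0, and of 11 female-biased genes 1 was lower. The male-biased genes were Hsd3b5 (−7.05 ± 1.33, adjusted p = 0.00173, limma), Susd4 (−5.21 ± 0.51, adjusted p = 2.29e-06) and Cyp7b1. Cyp7b1 lost its call in 11 of the 21 fits without a single array. In control day 2 against day 0 none of the male-biased genes and 2 of the female-biased genes passed, the latter as higher.

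Profiles most like those of the called members were found by the root mean square difference of centred log2 values over the 21 arrays, ranked among genes outside the 10 members. Gstm6 was nearest to Gstm1 (0.48) and to Gsta2 (1.05). Among the members themselves Gsta3 was nearest to Gstm1 (0.48), and Gstm1 was nearer to Gstm3 (0.97) than any gene outside them. The lipoprotein gene Apoe was nearest to Gsta3 (0.47), the cytochrome Cyp2f2 to Gsta4 (0.33), and the sterol pathway enzyme Fdps to Gstm3 (1.11). Dpp4 was nearest to Gstp1 (0.25) and the carrier Slc25a11 to Gstt1 (0.22). The arrays share groups, mice and RNA condition, so these distances describe the 21 samples only. For scale, the root mean square of the members' own centred profiles was 2.02 for Gsta2, 2.00 for Gstm3, 1.31 for Gstm1 and 0.44 for Gstp1.

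Abcb4, the targeted gene, was lower in KO on each day (−1.58, −1.99 and −2.41 on days 0, 2 and 6, adjusted p = 0.00126, 0.00266 and 0.000447 by limma). Array medians lay between 3.80 and 4.10 (log2), and the precision of these values rests on 3 to 6 arrays a group, within which each array is from a separate mouse.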

How the data were processed

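Affymetrix array signals of 21 mouse liver samples (12 KO, 9 control) in 6 groups were used as deposited. The deposited values are log2 signals from GCRMA, per the submitters' processing notes, with no version named in the sources used here. The deposited table holds 22690 probe sets, of which 20380 have 1 gene symbol, 691 several and 1555 none; several-symbol sets and 64 array controls were left out of the tests. Each gene was represented by its probe set of highest mean, and 7320 genes above log2 4 in at least 3 arrays were tested.

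One limma model (3.58.1, R 4.3.3) of 6 groups gave 9 contrasts with 15 residual degrees of freedom; adjusted p is Benjamini-Hochberg over all genes tested, called under 0.05. Errors of differences are standard errors. Probe sets were fitted the same way for the members with several. The script was tested on simulated data. Samples with the same mouse number come from 1 animal per the labels; their deviations from the group means correlated at −0.0568 to 0.303 over 9 pairs (median 0.119), and the mouse as a random block had a correlation of 0.108. Alternatives were the filter, probe set choice, normalization, centring, moderation, groups fitted, mouse block, RNA-end covariate and single arrays left out.

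The 10 members, the gene lists and the tests were chosen with earlier results of these data known. Named genes are the members, and up to 3 called genes per list and day with the largest difference between KO and control. They also include the 3 nearest profiles of each called member, and Abcb4, Nfe2l2 and Nr1i3. Gnmt, Abcg2, Gstz1, Gstk1, Glrx, S100a8, S100a9, Col3a1, Pdgfrb and Tspan8 were named after their values were seen. The same holds for Hp, Hpx, Hpd, Fga and Tat, and for Ephx1 as a list member. Promoter windows and gene order are from RefSeq (GRCm38.p6), matched by Entrez identifier for 20351 probe sets.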

Additional observations from a re-analysis of the deposited data

Results flagged for a closer look

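In KO day 0, which has 6 livers, mouse 258 stood apart from the other 5 as the lowest value in 5 of the 15 probe sets tested, by Dixon's criterion (a gap to the nearest liver above 0.625 of the range). Its log2 values were 10.43 for Gsta4 (gap share 0.672), 11.37 for Gsta2 (0.711), 7.54 for Gstm4 (0.632), 11.29 for Gstm3 (0.749) and 13.84 for Gstp1 (0.682). Chance alone gives such a flag in about 1 in 20 groups, and the 5 come from 1 array. The calls that change without this liver, Gstm3 and Gstp1 in KO day 2 against day 0, are given with that comparison.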

How the results depend on the processing

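The 3 members called between KO and control on day 2 became 0 with only the groups compared, 0 with the 3 high-Gapdh arrays left out and 0 with the beta-actin covariate. Gsta3 turned from 1.51 to −0.18 and −0.29 under the latter 2 settings. The 7 called in control on day 2 against day 0 became 1, 1 and 1 under these settings and 0 with the mouse as a fixed block; the replicate block changed no other member's call, except that as a random block it added Gstm4 (−1.34, adjusted p = 0.043 by limma). The fixed block could be fitted for days within a genotype only. The cause was not tested. Leaving out single arrays gave 0 to 1 member on day 0, 1 to 5 on day 2 and 0 to 1 on day 6 between KO and control, 4 to 9 and 0 to 1 in control on days 2 and 6 against day 0, 0 to 2 and 0 to 0 in KO, and 0 to 1 and 0 to 0 for the day 2 and day 6 responses. Of the 11 member calls, 5 were kept with every single array left out, and 0 under every alternative, single arrays included. Gstm3 in KO against control on day 0 lost its call only without control day 0 303.

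Counts over all genes moved further. KO against control on day 0 had 707, against 1055 with only the groups compared (357 to 902 with single arrays left out). KO against control on day 2 had 418, against 687 with every probe set, 18 with only the groups compared, 36 with the 3 arrays left out and 71 with the covariate (72 to 1161 with single arrays left out). Control day 2 against day 0 had 696, against 1113, 27, 78 and 88 in that order and 3 with the fixed block (173 to 1283). KO against control on day 6 had 127, against 38 with only the groups compared (61 to 161). Control day 6 against day 0 had 209, against 19 with only the groups compared and 2 with the fixed block (54 to 298). KO day 6 against day 0 had 10, against 6 without the filter, 1 with the fixed block and 6 with the 3 arrays left out (2 to 45). The day 2 response had 0, and up to 10 under the alternatives (0 to 228), and the day 6 response 12, against 5 with the filter at log2 6 (4 to 41). Array number and RNA condition limit these values.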
